A study of Homo sapiens with 32 samples.

Results

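STM2457 was compared with DMSO in HEK293T cells that also received emetine, which stops translation, for the last 2 h. The comparison took the 6 libraries whose titles name emetine for 2 h, 3 with STM2457 and 3 with DMSO, out of 32 in the series. HEK293T cells derive from human embryonic kidney and express the large T antigen of SV40. The tested cells received 20 µM STM2457 in 0.2% DMSO for 6 h and 1.8 µM emetine for the last 2 h, and their controls received 0.2% DMSO for 6 h and the same emetine. Emetine was thus common to both groups, and STM2457 was present before emetine was added. The same experiment held 3 libraries with STM2457 and 3 with DMSO that had DMSO in place of emetine, all 4 groups of the experiment making up 12 libraries. A separate knockdown experiment, with 3 libraries of STM2457 for 6 h and 3 of DMSO without YTHDF2 siRNA, shares no library with these. A further experiment, with 4 libraries of 20 µM STM2457 for 9 h and 4 of 0.2% DMSO for 9 h and no emetine, served only for a second choice of gene sets. The labels call the cells of the knockdown comparison WT and do not say whether they received a control siRNA.

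N6-methyladenosine (m6A) is a methyl mark that a complex around METTL3 writes into mRNA, and STM2457 inhibits the METTL3 enzyme. The mark is laid down mostly in long internal exons and near stop codons, since exon junction complexes keep the writer away from nearby sequence. Marked mRNAs are bound by YTH domain proteins, and YTHDF2 brings them to the CCR4-NOT deadenylase, which starts their decay. Emetine binds the small ribosomal subunit and stops elongation, so that ribosomes stay on the mRNA. The series asks whether m6A in coding sequence lowers mRNA levels in a way that needs translation. The emetine libraries address what STM2457 does to mRNA levels when elongation is stopped for the last 2 h of its treatment.

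Poly(A) RNA was sequenced and the deposited values are read counts per gene. The 6 libraries held 21781514 to 24875407 gene counts with STM2457 and 24592643 to 26332409 with DMSO. Reads of the 92 ERCC spike-in RNAs came to 0.434% to 0.457% of gene counts with STM2457 and 0.402% to 0.472% with DMSO. Pairs of replicates with emetine differed by more than sampling noise, with a chi-square of 1.80 to 3.37 per degree of freedom over genes. Replicate pairs without emetine, which enter the same fit, differed by more, with 1.79 to 11.9. No library was therefore counted as a copy of another. All 10 genes of a list of kidney and neural genes known from HEK293 cells reached 1 CPM (counts scaled to a common library size with TMM factors), with a sum of 1999 to 2039 CPM with STM2457 and 1923 to 1956 CPM with DMSO. Of 8 hepatocyte markers none reached 1 CPM, of 8 blood markers 1 did, and KRT5, KRT1, KRT14, HBB, APOB, CYP3A4 and TTR were at 0 in all 6 libraries. Of 8 fibroblast markers 3 reached 1 CPM (20.7 to 22.3 CPM with STM2457 and 20.5 to 21.7 CPM with DMSO in sum), and of 8 keratin epithelium markers 3 did (30.1 to 30.6 CPM and 27.6 to 29.8 CPM). The labels do not state that replicates came from separate cultures, so p-values measure the spread between these samples, which may be technical. How the counting treated strand is not given in the sources used here. Reads of genes that overlap are therefore not assigned with certainty, and an overlap with a protein coding gene is named beside each such gene.

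The sequence that the writer complex prefers is GGACT, or GGACU in RNA. Part of the results below groups genes by the number of GGACT in coding sequence away from exon junctions. Of 13156 protein coding genes tested with a coding transcript, 3273 (24.9%) held at least 1 GGACT in the coding part at 150 nt or more from every exon junction, on the transcript's own strand, and 8067 (61.3%) held one in the 3' UTR. The windows of 31 nt below surround such sites in the coding parts of 6 genes, 5 of them among the 12 protein coding genes that rose most with STM2457 in emetine-treated cells and YTHDF2 as the reader itself, with METTL3 for comparison. They were read from the longest coding transcript in GENCODE release 29, run 5′ to 3′ as DNA, and have the motif in capitals. Whether these sites carry m6A was not measured here.
RBM15, chr1:110339578-110339608, plus strand, GRCh38: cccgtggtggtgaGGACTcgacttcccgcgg
RBM15, chr1:110341188-110341218, plus strand, GRCh38: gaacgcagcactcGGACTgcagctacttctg
YTHDF2, chr1:28743688-28743718, plus strand, GRCh38: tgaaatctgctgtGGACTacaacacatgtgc
MFSD5, chr12:53254095-53254125, plus strand, GRCh38: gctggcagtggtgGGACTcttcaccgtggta
FEM1C, chr5:115525306-115525336, minus strand, GRCh38: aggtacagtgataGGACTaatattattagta
FAM83D, chr20:38926381-38926411, plus strand, GRCh38: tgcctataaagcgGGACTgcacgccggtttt
TENT5B, chr1:27006536-27006566, minus strand, GRCh38: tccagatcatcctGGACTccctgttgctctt
METTL3, chr14:21503367-21503397, minus strand, GRCh38: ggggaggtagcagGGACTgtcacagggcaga

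With emetine present, STM2457 raised 3409 of 15817 genes tested (21.6%) and lowered 2563 (16.2%) at an edgeR adjusted p under 0.05. Large changes went mostly downwards: 111 genes (0.702%) rose by 2-fold or more and 502 (3.17%) fell by 2-fold or more. Levels are shares of each library, and in bulk RNA fewer cells of a kind and less RNA per cell cannot be told apart. The 3 libraries with STM2457 did not overlap the 3 with DMSO for 7655 genes (48.4%). The median log2 change over all genes was 0.01 with TMM scaling, -0.07 when libraries were scaled to the ERCC spike-ins and -0.09 when they were scaled to ribosomal protein genes. The split between directions moved with this choice, to 1351 higher and 2581 lower with ERCC scaling and to 1657 higher and 4364 lower with ribosomal protein scaling. Log2 changes are given with TMM scaling and stand for STM2457 minus DMSO, with the standard error (SE) of the fit.

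RBM15, which carries the writer complex to its RNA targets, rose with the smallest p of all genes tested. RBM15 was at 241, 243 and 241 CPM with STM2457 and at 69.2, 68.6 and 69.3 CPM with DMSO, all with emetine. The groups lie far apart, and the log2 change was 1.81 ± 0.03 (SE, edgeR adjusted p = 1.0e-28). KCNJ14, an inwardly rectifying potassium channel, had 10.9, 12.96 and 12.2 CPM with STM2457 and 2.85, 2.21 and 2.35 CPM with DMSO. Its log2 change of 2.28 ± 0.12 was the highest among the 12 most raised protein coding genes whose mean log2 CPM was 2 or more, but it overlaps ENSG00000268465 and GRWD1. GNB3, a G protein beta subunit that overlaps CDCA3, had 17.6, 16.2 and 18.1 CPM with STM2457 and 4.83, 4.38 and 4.06 CPM with DMSO, a log2 change of 1.97 ± 0.09. That the groups of KCNJ14 and GNB3 do not overlap was a condition of their choice. MFSD5, a membrane transporter of the major facilitator superfamily, had 70.8, 65.5 and 69.9 CPM with STM2457 and 25.6, 24.9 and 26.0 CPM with DMSO, a log2 change of 1.43 ± 0.05. FEM1C, a substrate receptor of a cullin ubiquitin ligase, rose by 1.40 ± 0.04, FAM83D, which places casein kinase at the mitotic spindle, by 1.36 ± 0.04, and BAMBI, a decoy receptor that dampens BMP and TGF-beta signals, by 1.37 ± 0.06. The others of the 12 were SLC31A2 (1.35, overlaps FKBP15), TRIM13 (1.31, overlaps KCNRG), SPOCK2 (1.29), TENT5B (1.26) and DNAJB1 (1.24, overlaps TECR). Of the 12, 5 held a coding GGACT away from junctions (41.7%), against 24.9% of all protein coding genes.

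Among the genes that make and read m6A, STM2457 raised most of the writers while the level of METTL3 itself did not pass the test. METTL3 had 73.3, 72.9 and 70.8 CPM with STM2457 and 68.1, 69.5 and 67.2 CPM with DMSO, a log2 change of 0.08 ± 0.04 (edgeR adjusted p = 0.133) that became -0.001 with ERCC scaling and -0.02 with ribosomal protein scaling. The 2 groups of METTL3 values do not overlap although the test was missed, and METTL3 overlaps TOX4. STM2457 blocks the enzyme and not its mRNA, so that this level is no check of the inhibitor. Of 8 writer genes 6 rose and none fell, with a median log2 change of 0.42, among them RBM15B (0.88 ± 0.04, overlaps DCAF1), the complex's scaffold WTAP (0.57 ± 0.04, overlaps SOD2) and the ubiquitin ligase CBLL1 (0.51 ± 0.04). YTHDF2 had 583, 590 and 585 CPM with STM2457 and 322, 326 and 335 CPM with DMSO, which puts the groups well apart (log2 change 0.84 ± 0.03, edgeR adjusted p = 2.2e-20). Of 12 readers and erasers 8 rose and none fell, with a median of 0.13, and the other YTH proteins YTHDF1 (0.58), YTHDF3 (0.48) and the nuclear reader YTHDC1 (0.40) were among them. With ERCC scaling 5 writers and 4 readers and erasers rose. Without emetine METTL3 rose by 0.22 ± 0.04 (edgeR adjusted p = 1.05e-04). Its difference between the settings did not pass the test (-0.13 ± 0.06, edgeR adjusted p = 0.144). Also without emetine, 8 writers rose and none fell (median 0.63), and 6 readers and erasers rose and 3 fell (median 0.065).

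Of the 12 protein coding genes that fell most, 4 have a single exon (SDHAF1, SMIM10, TSPYL4 and KCTD11), while none of the 12 that rose most does. Among 13156 protein coding genes tested with a coding transcript, 336 have a single exon. Their median log2 CPM was 3.71, beside 5.06 for all protein coding genes. ZNF33B, a KRAB zinc finger protein, had 7.83, 7.66 and 7.02 CPM with STM2457 and 43.9, 43.4 and 44.2 CPM with DMSO, a log2 change of -2.54 ± 0.08 (edgeR adjusted p = 2.9e-23). SDHAF1, an assembly factor of respiratory complex II, had 4.43, 4.62 and 4.47 CPM with STM2457 and 24.2, 23.2 and 22.8 CPM with DMSO, a log2 change of -2.37 ± 0.08. WDR6, a WD repeat protein with a part in tRNA methylation, had 56.9, 59.4 and 63.8 CPM with STM2457 and 252, 256 and 241 CPM with DMSO, a log2 change of -2.06 ± 0.04, and overlaps DALRD3 and P4HTM. In each of these genes the libraries with STM2457 lie far below those with DMSO, and lack of overlap was a condition of their choice. The other 9 fell by 1.84 to 2.02 on the log2 scale: SMIM10, the transcriptional regulator ZBTB26, TSPYL4, the mitochondrial dihydrofolate reductase DHFR2 (overlaps NSUN3), KCTD11, C14orf132, the Rab escort protein CHML (overlaps OPN3), ZDBF2 and ENSG00000285053 (overlaps GGPS1 and TBCE). Of these 12 genes 7 held a coding GGACT away from junctions (58.3%), a larger count than among the 12 that rose most, and with 12 genes on each side no difference was tested.

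Falls made up most changes of noncoding RNAs. Of 13179 protein coding genes 24.8% rose and 14.4% fell, of 863 antisense RNAs 3.8% rose and 32.1% fell, and of 581 lincRNAs (long intergenic noncoding RNAs) 6.2% rose and 28.2% fell. With ERCC scaling the balance of protein coding genes turned round, to 9.6% that rose and 14.2% that fell, and antisense RNAs stood at 2.2% and 34.5%. Of the 502 genes that fell by 2-fold or more, 138 were protein coding, 153 antisense and 91 lincRNA. The median log2 change was 0.03 for protein coding genes, which became -0.06 with ERCC scaling, -0.32 for antisense RNAs and -0.23 for lincRNAs. Falls also prevailed without emetine, where 50 antisense RNAs rose and 251 fell (median -0.29) and 48 lincRNAs rose and 132 fell (median -0.15). Noncoding RNAs were much lower in level, with a median log2 CPM of -0.13 for antisense RNAs and 0.00 for lincRNAs beside 5.06 for protein coding genes, and the part of level in the result was not tested. The divergent transcript TFIP11-DT had 1.72, 1.66 and 2.37 CPM with STM2457 and 9.17, 10.1 and 9.55 CPM with DMSO, a log2 change of -2.33 ± 0.13. ENSG00000286388 fell by 2.51 ± 0.13, the pseudogene transcript OGFRP1 by 1.96 ± 0.13, and TUG1, a long noncoding RNA of the nucleus and cytoplasm, by 1.57 ± 0.05. In the other direction stood SMG1P7, a pseudogene of the decay kinase SMG1, with 37.9, 36.5 and 37.5 CPM with STM2457 and 8.45, 7.94 and 7.98 CPM with DMSO. Its log2 change was 2.20 ± 0.07, and because SMG1 has several near-identical pseudogenes the assignment of its reads is uncertain. SNHG3, a host of small nucleolar RNAs that overlaps RCC1, rose by 1.07 ± 0.04.

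**Figure D1:**
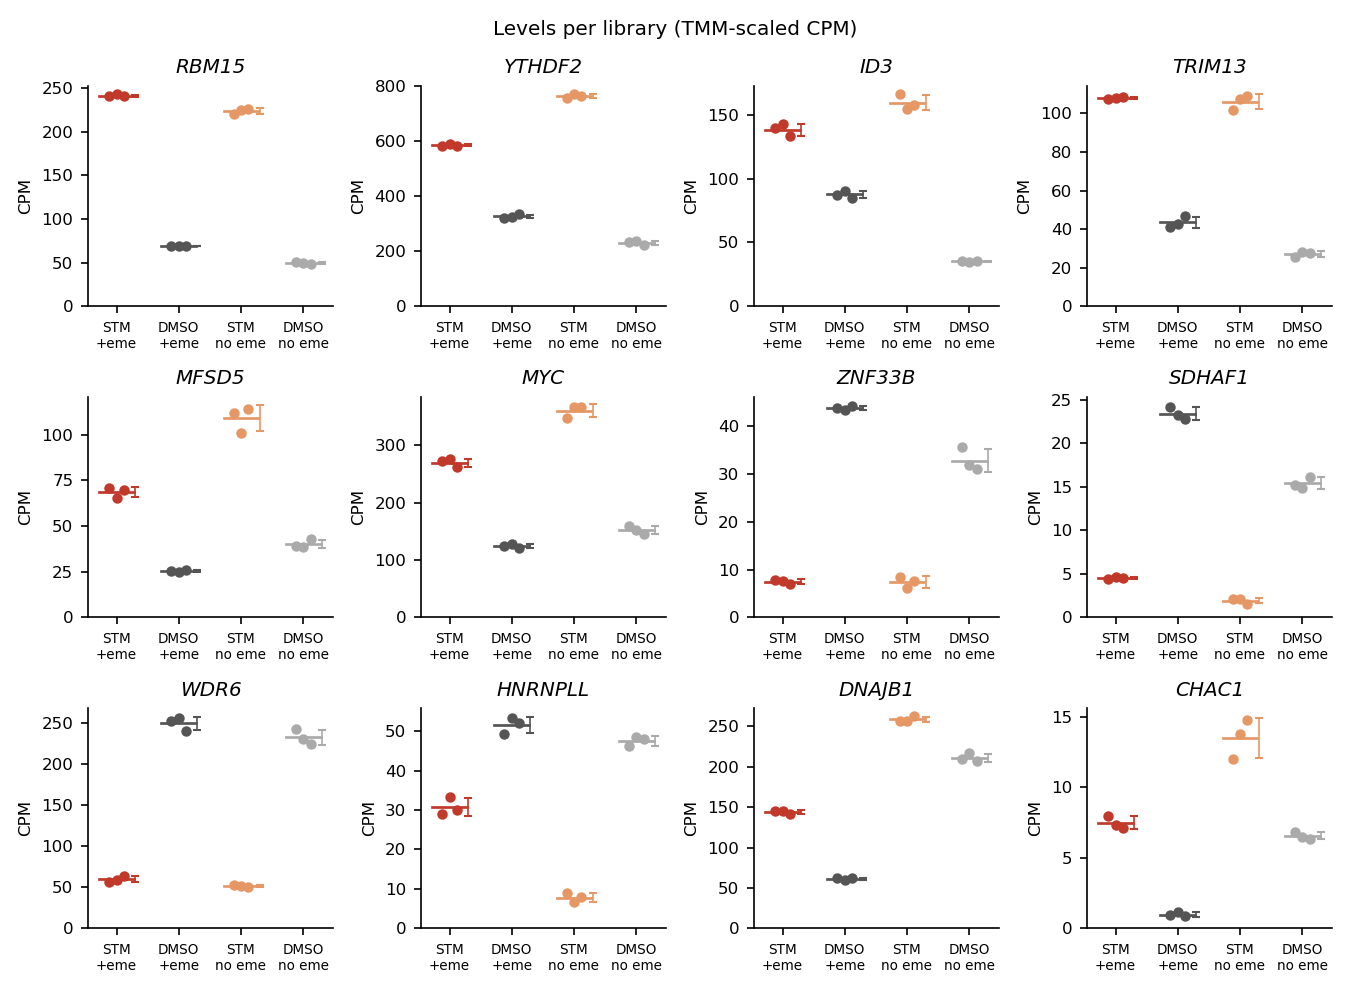
Level in CPM (TMM scaling) of 12 genes in the 12 libraries of the emetine experiment, with STM2457 and emetine, DMSO and emetine, STM2457 without emetine and DMSO without emetine from left to right. Points are libraries, horizontal lines the mean and bars 1 SD (n = 3); RBM15 stood at 241 to 243 CPM with STM2457 and emetine against 68.6 to 69.3 CPM with DMSO and emetine, and CHAC1 at 7.10 to 7.99 CPM against 0.855 to 1.16 CPM.

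To see what emetine changes in the response, the effect of STM2457 in emetine-treated cells was set against its effect in the cells without emetine, and the difference was tested in the same fit. Without emetine, 4108 genes rose (26.0%) and 3459 fell (21.9%), 291 (1.84%) and 456 (2.88%) of them by 2-fold or more. This split turned to 2092 higher and 4679 lower with ERCC scaling and to 2200 higher and 6689 lower with ribosomal protein scaling, with a median over all genes of -0.13 and -0.17. The effect with emetine was more positive for 1062 genes (6.71%) and more negative for 1748 (11.1%), which became 227 and 478 with ERCC scaling and 1338 and 933 with ribosomal protein scaling, so the split turned round under the last. Of the 4108 genes raised without emetine, 1448 had a more negative effect with emetine and 48 a more positive one, and 2665 still rose while 89 fell. Of the 3459 genes lowered without emetine, 848 had a more positive effect with emetine and 96 a more negative one, and 1651 still fell while 53 rose. Because these classes were chosen by the effect without emetine, which is also part of the difference, the counts are a description.

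**Figure D2:**
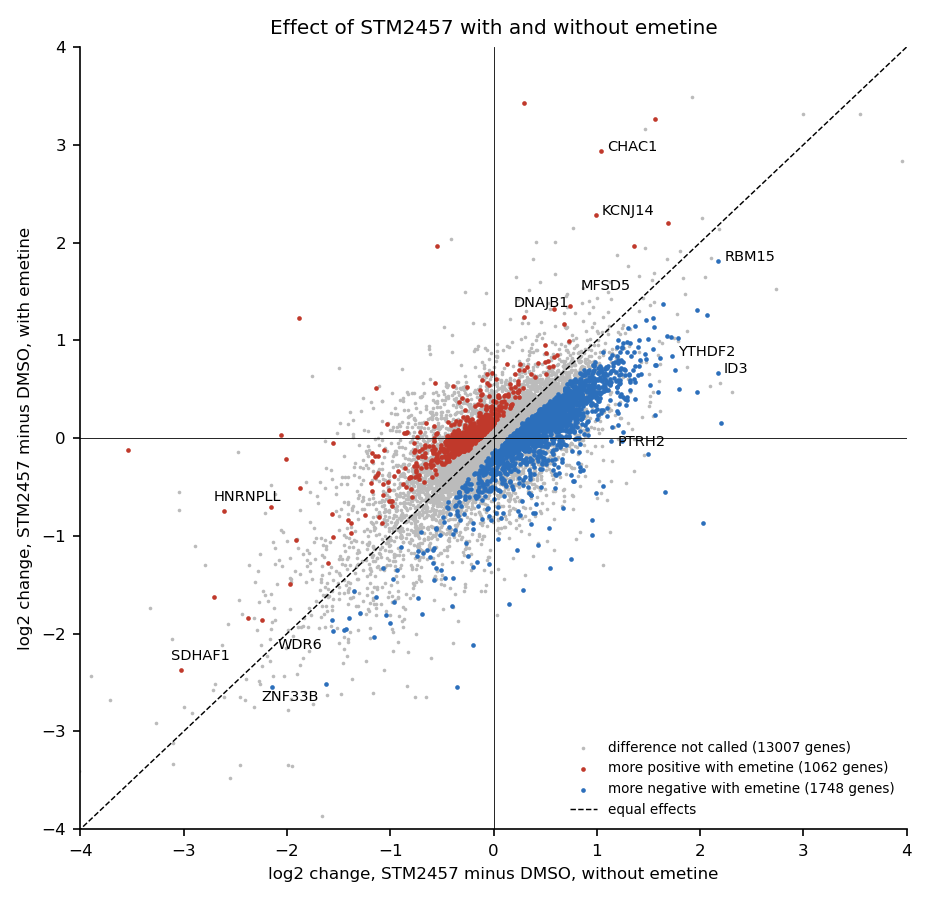
Log2 change with STM2457 in emetine-treated cells (vertical axis) against the log2 change without emetine (horizontal axis) for the 15817 genes tested, 10 of which lie outside the axes. The 1062 red genes had a more positive and the 1748 blue genes a more negative effect with emetine (edgeR adjusted p under 0.05), and most blue genes lie right of 0 and below the dashed line of equal effects.

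ID3, an inhibitor of basic helix-loop-helix factors and a target of BMP signals, had the most negative difference among protein coding genes with a mean log2 CPM of 2 or more and no overlap between libraries in the larger effect. ID3 was at 139, 142 and 133 CPM with STM2457 and 87.1, 90.5 and 85.1 CPM with DMSO in emetine-treated cells, and at 166, 155 and 158 CPM with STM2457 and 35.7, 35.0 and 35.4 CPM with DMSO without emetine. The groups did not overlap on either side, but the step was 0.66 ± 0.04 with emetine and 2.17 ± 0.04 without it (difference -1.51 ± 0.06, edgeR adjusted p = 1.8e-19). PTRH2, a peptidyl-tRNA hydrolase of mitochondria that overlaps CLTC and VMP1, had 74.1, 70.0 and 67.2 CPM with STM2457 and 72.5, 72.1 and 70.8 CPM with DMSO under emetine, where the groups overlap. Without emetine it had 85.7, 78.6 and 87.4 CPM with STM2457 and 36.1, 36.4 and 42.2 CPM with DMSO, and the difference was -1.17 ± 0.07. HOXA6 turned direction, with 20.96, 21.3 and 22.2 CPM under STM2457 and 37.3, 37.2 and 35.2 CPM under DMSO in emetine-treated cells, and 24.8, 23.8 and 25.3 CPM under STM2457 and 19.0, 18.4 and 19.3 CPM under DMSO without emetine. Its effect was -0.77 ± 0.05 with emetine and 0.38 ± 0.06 without. ADPRM (-1.29), SPSB2 (-1.28, overlaps LRRC23 and TPI1), the Mediator subunit MED18 (-1.06), LENG9 (-1.04, overlaps LENG8) and TMEM186 (-1.04, overlaps ABAT and PMM2) were the others of the 8 most negative differences chosen in this way. For YTHDF2 the difference was -0.89 ± 0.05, for RBM15 -0.37 ± 0.05 and for MFSD5 -0.01 ± 0.07, the last with an edgeR adjusted p of 0.942 and effects of 1.43 with emetine and 1.44 without.

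In the opposite direction stood genes whose response was larger with emetine or whose fall was smaller. CHAC1, a glutathione-degrading enzyme induced by the stress factor ATF4, had 7.99, 7.35 and 7.10 CPM with STM2457 and 0.913, 1.16 and 0.855 CPM with DMSO under emetine. Without emetine it had 11.97, 13.7 and 14.8 CPM with STM2457 and 6.83, 6.51 and 6.35 CPM with DMSO, so its effect was 2.94 ± 0.15 with emetine and 1.04 ± 0.09 without (difference 1.89 ± 0.19, edgeR adjusted p = 3.0e-09). Within each treatment CHAC1 was lower with emetine than without it, by more with DMSO than with STM2457. HNRNPLL, a splicing regulator, had 29.1, 33.3 and 30.0 CPM with STM2457 and 49.4, 53.2 and 52.1 CPM with DMSO under emetine, against 8.91, 6.70 and 7.84 CPM with STM2457 and 46.1, 48.6 and 48.0 CPM with DMSO without emetine. Its fall was -0.74 ± 0.06 with emetine and -2.61 ± 0.07 without (difference 1.86 ± 0.10). The libraries with DMSO were close to each other on both sides, and the libraries with STM2457 were the ones that differed. DNAJB1, an HSP40 cochaperone that overlaps TECR, had 145, 145 and 141 CPM with STM2457 and 61.7, 59.2 and 62.2 CPM with DMSO under emetine, against 256, 257 and 263 CPM with STM2457 and 209, 217 and 208 CPM with DMSO without it (difference 0.94 ± 0.05). KCNJ14 (1.29), PCNX4 (0.88, overlaps DHRS7), ZNF324B (0.79), PDRG1 (0.76, overlaps TTLL9) and the mitochondrial histidyl-tRNA synthetase HARS2 (0.75, overlaps HARS1 and ZMAT2) were the others of the 8 most positive differences chosen in the same way. The last 4 of these fell with STM2457 on both sides, by less with emetine.

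The knockdown experiment gave gene sets chosen on other libraries, but by the effect of STM2457 without emetine. Genes that changed mainly with emetine are thus left out. This choice favours a larger effect without emetine, so the medians and counts of the sets are a description. There STM2457 for 6 h raised 292 genes by 2-fold or more (1.75% of 16662 tested) and lowered 504 (3.02%), of which 266 and 434 were measured in the emetine experiment. The 266 raised genes had a median log2 change of 0.67 with emetine (quartiles 0.48 and 0.95) and 1.13 without it (quartiles 0.95 and 1.32), beside 0.01 and 0.004 over all genes. By library the median was 0.67, 0.69 and 0.65 in the 3 libraries with STM2457 and emetine and 1.10, 1.11 and 1.11 in the 3 with STM2457 alone, each against the mean of its DMSO libraries. The libraries of the 2 settings do not overlap in this median, but the 3 of each setting share 1 DMSO mean and hold no DMSO spread. Of the 266 genes 226 rose with emetine and 240 without, and in 161 the effect was weaker with emetine and in 3 stronger by the test of the difference. The 434 lowered genes had a median of -1.18 with emetine and -1.20 without it, and their library medians of -1.04, -1.15 and -1.11 with emetine and -1.28, -1.10 and -1.12 without it overlap. Of these 311 fell with emetine and 318 without, with 29 weaker and 12 stronger. Emetine alone, in the DMSO groups, had a median of 0.34 for the 266 raised genes and 0.24 for the 434 lowered genes. The part of this shift in the difference was not tested. In all, 4129 genes were called in both the emetine comparison and the knockdown experiment, 69.6% of the 5931 and 56.2% of the 7349 called in each among 15583 genes tested in both (45.0% of all genes tested in the knockdown experiment were called), and 94.5% of them changed in the same direction.

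**Figure D3:**
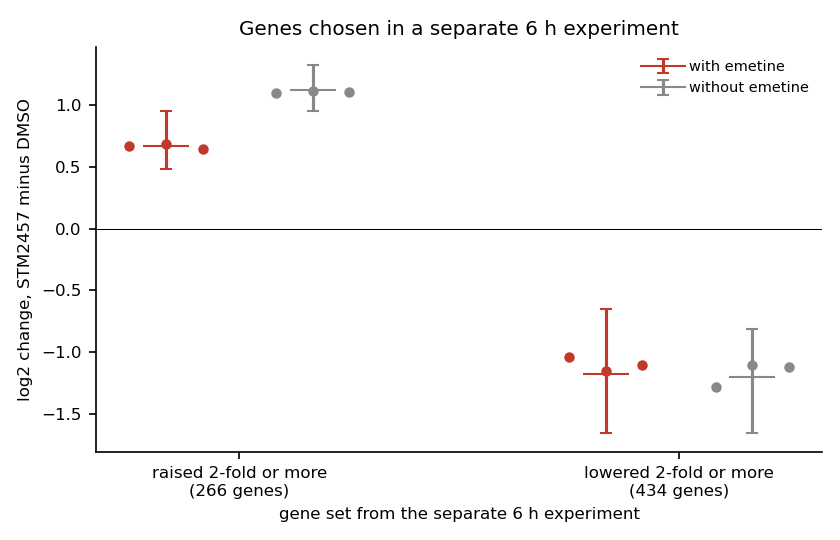
Log2 change with STM2457 in the emetine experiment for genes raised (266) or lowered (434) by 2-fold or more in the separate 6 h experiment, with emetine on the left of each pair and without emetine on the right. Horizontal lines are medians over genes, bars quartiles and points the median in each library with STM2457; the raised genes centre on 0.67 with emetine and 1.13 without, the lowered genes on -1.18 and -1.20.

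The size of the response also went with GGACT in the coding part, and less so with emetine. Genes with 0, 1, 2 and 3 to 4 coding motifs away from exon junctions (9883, 1802, 778 and 526 genes) had median log2 changes of 0.02, 0.06, 0.11 and 0.14 with emetine and of -0.01, 0.15, 0.23 and 0.29 without it. For the 167 genes with 5 or more the medians were 0.08 with emetine and 0.30 without. With emetine 20.9% of genes without a coding motif rose and 41.6% of those with 3 to 4, and without emetine 23.5% and 55.5%. Falls made up 13.8% of genes with none, 15.8% with 3 to 4 and 24.6% with 5 or more in emetine-treated cells, and 24.5%, 11.8% and 17.4% without emetine. The median of the difference between effects ran 0.02, -0.11, -0.14, -0.17 and -0.18 over the 5 classes. Emetine alone, in the DMSO groups, had medians of -0.026, 0.159, 0.185, 0.226 and 0.19 over the same classes. The part of this shift in the difference was not tested. In each of the 3 libraries with STM2457 and emetine, the genes with 3 to 4 motifs stood at 0.12 to 0.17 and those with none at 0.01 to 0.03. Coding length rises with the number of motifs, with a median of 1242 nt for none and 5064 nt for 5 or more, and among genes with 1500 to 3000 nt of coding sequence the gap between 3 to 4 motifs and none was 0.16 with emetine and 0.39 without. When motifs at any distance from junctions were counted the gap was 0.015 with emetine and 0.032 without. Motifs in the 3' UTR went with much smaller steps in the median: the classes lay between 0.02 and 0.05 with emetine and between 0.002 and 0.04 without it. The share of genes that rose did go up with 3' UTR motifs. With emetine it was 19.7% with no motif and 32.1% with 3 to 4, and without emetine 25.5% and 35.3%. Falls made up 12.3% and 15.8% of the same classes with emetine and 21.9% and 21.3% without. These are medians and shares over genes, given as a description with no test.

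**Figure D4:**
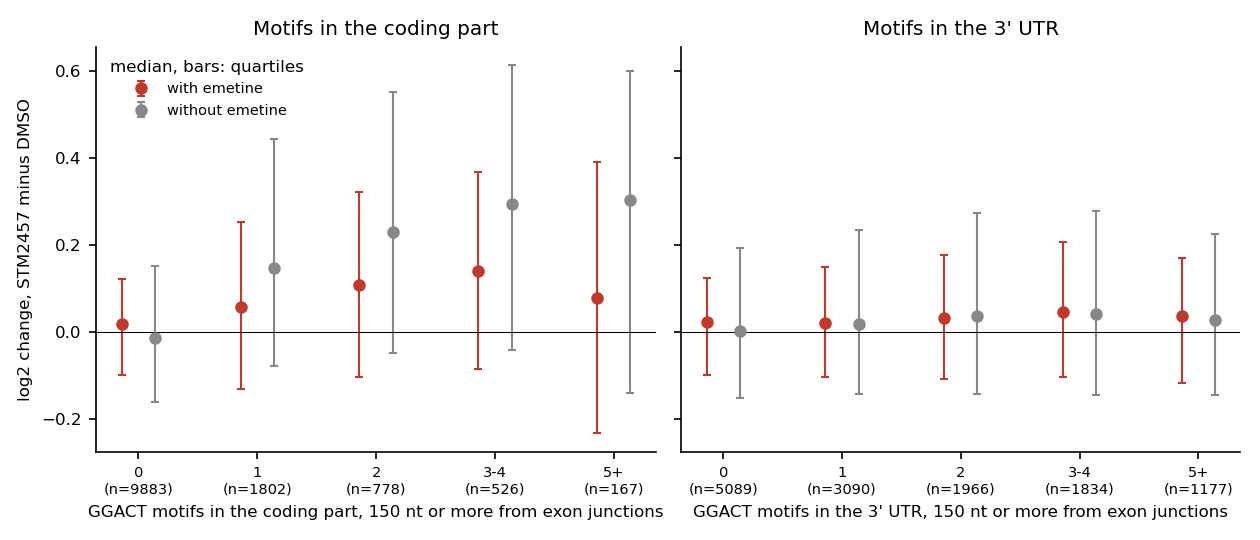
Median log2 change with STM2457 (bars: quartiles over genes) by the number of GGACT motifs at 150 nt or more from exon junctions in the coding part (left panel) and the 3' UTR (right panel), with emetine in red and without it in grey. For 3 to 4 coding motifs the medians are 0.14 with emetine and 0.29 without, while all 3' UTR classes lie near 0.

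Protein coding genes were also grouped by exon structure. Those with 1 exon (336) had a median of -0.02 with emetine and 0.22 without, those with 2 exons (691) had 0.13 and 0.26, and those with the most exons, 21 or more (1807), had 0.02 and -0.03. Single-exon genes held 37 falls and 7 rises of 2-fold or more with emetine, beside 138 falls and 73 rises among all 13179 protein coding genes. Genes whose longest internal coding exon was above 1000 nt (851) had a median of 0.08 with emetine and 0.20 without, and the 6332 genes with one over 150 and up to 300 nt had 0.02 and -0.03.

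Lists of genes were then read by their counts of members raised and lowered, against 21.6% and 16.2% of all genes. These shares are for TMM scaling with emetine. With emetine, 1351 of the 15817 genes rose and 2581 fell with ERCC scaling, and 1657 rose and 4364 fell with ribosomal protein scaling. Without emetine 26.0% rose and 21.9% fell with TMM scaling. The difference was more positive in 6.71% and more negative in 11.1% of all genes, or in 227 and 478 genes with ERCC scaling. Signalling and transcription factor genes rose more often than they fell. Of 43 immediate early genes, which respond to growth signals, 21 rose and 2 fell (median 0.20), and without emetine 25 rose and 2 fell (median 0.39). MYC, the growth-promoting transcription factor, had 272, 276 and 262 CPM with STM2457 and 124, 128 and 120 CPM with DMSO, a log2 change of 1.12 ± 0.04 with emetine and 1.24 ± 0.04 without. RHOB rose by 0.88 ± 0.04 and ID2 by 0.85 ± 0.04. JUN, a subunit of the AP-1 factor, had 2704, 2537 and 2561 CPM with STM2457 and 1836, 1783 and 1918 CPM with DMSO under emetine, and 206, 231 and 235 CPM with STM2457 and 189, 192 and 184 CPM with DMSO without it. JUN was far higher in both groups with emetine, and its log2 change with STM2457 was 0.49 ± 0.04 with emetine and 0.25 without. Of 17 BMP and TGF-beta response genes 9 rose and 3 fell (median 0.34), and 9 of them had a more negative effect with emetine and none a more positive one. Of 24 SOX and KLF factors 15 rose and 2 fell (median 0.32), among them SOX2 (0.74 ± 0.08) and KLF11 (0.58 ± 0.05). Of 13 MAPK feedback inhibitors 6 rose and none fell, with ERRFI1, an inhibitor of the EGF receptor, at 86.0, 82.5 and 83.2 CPM with STM2457 and 44.8, 49.9 and 47.7 CPM with DMSO (log2 change 0.82 ± 0.04). With ERCC scaling the rises numbered 15 immediate early genes, 7 BMP and TGF-beta response genes, 11 SOX and KLF factors and 4 MAPK feedback inhibitors, and the more negative differences of BMP genes numbered 3. Of 14 WNT targets 5 rose and 1 fell, and their median of 0.07 became -0.01 with ERCC scaling and -0.03 with ribosomal protein scaling.

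HOX genes, which encode homeobox factors of body patterning, rose in part. Of 36 HOX genes 21 rose and 4 fell (median 0.29), and without emetine 26 rose and 1 fell (median 0.47). The effect was more negative with emetine in 16 and more positive in none, beside 11.1% and 6.71% of all genes. HOXD13, a posterior limb regulator, had 245, 235 and 228 CPM with STM2457 and 125, 125 and 128 CPM with DMSO (log2 change 0.91 ± 0.04), and HOXA11 rose by 0.63 ± 0.04 and HOXB9 by 0.39 ± 0.03. Of 416 ZNF genes 149 rose and 86 fell, with a median of 0.08 that became -0.005 with ERCC scaling and -0.03 with ribosomal protein scaling, and the effect was more negative with emetine in 107 and more positive in 14. The corepressors ZNF703 (1.21 ± 0.04) and ZNF503 (1.05 ± 0.04) also rose, ZNF703 to between 1039 and 1099.9 CPM with STM2457 against 461 to 471 CPM with DMSO, and ZNF503 to between 1089 and 1175 CPM against 528 to 570 CPM. With ERCC scaling 13 HOX genes rose and 4 fell, while the balance of ZNF genes turned to 83 that rose and 88 that fell, and with ribosomal protein scaling to 94 and 107. The difference was more negative in 8 HOX and 35 ZNF genes with ERCC scaling. Of 28 replication histone genes 1 rose and 12 fell (median -0.34), among them H2BC21 (-1.43 ± 0.10) and H2AC11 (-1.81 ± 0.18). Histone mRNAs of this kind mostly lack a poly(A) tail, so a poly(A) library holds a part of them. Of 15 protocadherins 2 rose and 4 fell (median -0.39), but genes of the gamma cluster such as PCDHGC3 (-1.48 ± 0.16) share exons and their reads cannot be assigned with certainty. PCDH10 rose by 0.57 ± 0.05 and PCDH9 fell by 0.53 ± 0.04.

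Stress pathways gave a mixed picture. Of 27 integrated stress response genes 16 rose and 1 fell (median 0.14), with DDIT4, an inhibitor of mTOR signalling, at 152, 142 and 131 CPM with STM2457 and 70.1, 73.8 and 79.0 CPM with DMSO (log2 change 0.93 ± 0.05) and the leucine sensor SESN2 at 153, 153 and 145 CPM and 92.3, 95.6 and 90.6 CPM (0.69 ± 0.04). The groups did not overlap in either gene. Of 20 heat shock chaperone genes 7 rose and 1 fell with emetine and 6 rose and 9 fell without it. The effect was more positive with emetine in 8 and more negative in none, beside 6.71% and 11.1% of all genes. The median of the list, 0.05 with emetine, became -0.04 with ERCC scaling and -0.06 with ribosomal protein scaling. HSPA1B, a stress-induced HSP70, had 150.9, 126 and 116 CPM with STM2457 and 50.6, 57.8 and 66.8 CPM with DMSO under emetine, and 909.8, 1021 and 1044 CPM with STM2457 and 586, 651 and 616 CPM with DMSO without it, and its reads are shared with a near-identical neighbour copy. Its level was thus much lower under emetine in both treatments, while its log2 change was 1.17 ± 0.07 with emetine and 0.68 ± 0.06 without. With ERCC scaling 8 integrated stress response and 5 heat shock genes rose, and the difference was more positive in 4 heat shock genes, while with ribosomal protein scaling 5 heat shock genes rose and 7 fell. Of 19 unfolded protein response genes 9 rose and 4 fell and none differed between the settings, and their median of 0.10 became -0.001 with ribosomal protein scaling, where 5 rose and 6 fell. Of 22 p53 targets 10 rose and 4 fell (median 0.14), which became 4 and 4 with ERCC scaling and 4 and 5 with ribosomal protein scaling. Of 18 interferon response genes 2 rose and none fell (median 0.11), and of 13 NF-kB response genes 4 rose and 2 fell (median 0.10, -0.004 with ribosomal protein scaling), against 1 and 1 with ERCC scaling. BIRC2, an inhibitor of apoptosis, fell by 0.69 ± 0.05 with emetine and by 0.15 without.

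Among the lists of RNA decay and splicing factors, the shares of members that rose lay both above and below the 21.6% of all genes. Of 18 CCR4-NOT and PAN deadenylase genes and adaptors 9 rose and 1 fell (median 0.16), with BTG1 at 0.51 ± 0.04 and TOB2 at 0.42 ± 0.04. Of 21 decapping and P body genes 10 rose and none fell, with a median of 0.09 that became 0.00 with ERCC scaling and -0.02 with ribosomal protein scaling. With ERCC scaling the rises numbered 4 deadenylase genes and 2 decapping genes. Of 18 nonsense-mediated decay factors 3 rose and none fell, a smaller share of rises than over all genes, and their median of 0.04 became -0.04 with ERCC scaling and -0.06 with ribosomal protein scaling. SMG8, a regulator of the decay kinase SMG1, had 190, 200 and 192 CPM with STM2457 and 111, 113 and 110 CPM with DMSO (log2 change 0.80 ± 0.03) and overlaps ENSG00000265303. Host genes of small nucleolar RNAs, whose spliced RNAs are decayed when translated, gave the highest share of rises among these lists: 16 of 17 rose and none fell (median 0.28), and without emetine 15 rose (median 0.37). With ERCC scaling 6 of the 17 rose and with ribosomal protein scaling 11. SNHG16 (overlaps ENSG00000284526) rose by 0.41 ± 0.04, EPB41L4A-AS1 (overlaps EPB41L4A) by 0.37 ± 0.05 and GAS5 by 0.30 ± 0.05. Of 13 SR splicing factors 5 rose and 1 fell (median 0.03), but none rose and 1 fell with ERCC scaling (median -0.06) and 2 rose and 2 fell with ribosomal protein scaling (median -0.08). Of 14 genes of ribosome quality control 4 rose and 2 fell (median 0.03), but 1 rose and 2 fell with ERCC scaling (median -0.06) and 1 rose and 5 fell with ribosomal protein scaling (median -0.08), and the ribosome rescue factor PELO rose by 0.66 ± 0.04 (overlaps ITGA1).

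Ribosomal and metabolic genes moved by small amounts. Of 83 cytosolic ribosomal protein genes 56 rose and none fell, with a median of 0.11 and values such as 0.17 ± 0.03 for RPL3, but with ERCC scaling none was called in either direction and the median was 0.03. Of 38 translation factors 11 rose and none fell, with a median of 0.04 that became -0.05 with ERCC scaling and -0.07 with ribosomal protein scaling. Of 77 mitochondrial ribosomal protein genes 10 rose and 20 fell (median -0.03), with MRPL27 down by 0.69 ± 0.05 and MRPL44 up by 0.45 ± 0.04. Of 77 nuclear oxidative phosphorylation genes 19 rose and 4 fell, with a median of 0.06 that became -0.03 with ERCC scaling and -0.05 with ribosomal protein scaling. With ERCC scaling no translation factor was called and no oxidative phosphorylation gene rose while 4 fell, and with ribosomal protein scaling 7 and 14 fell and none rose. UQCR11, a subunit of complex III, had 15.3, 15.2 and 15.5 CPM with STM2457 and 37.6, 39.9 and 38.8 CPM with DMSO (log2 change -1.34 ± 0.06) and overlaps ENSG00000267059. None of the 13 genes of mitochondrial DNA was called (median -0.12), while with ERCC scaling 9 fell. Of 23 cholesterol synthesis genes 11 rose and 6 fell (median 0.07), but 4 rose and 6 fell with ERCC scaling (median -0.01) and 4 rose and 8 fell with ribosomal protein scaling (median -0.03). Of 25 hypoxia and glycolysis genes 13 rose and 3 fell (median 0.11), with EGLN3 at 0.71 ± 0.07, but 4 rose and 3 fell with ERCC scaling (median 0.02) and 4 rose and 5 fell with ribosomal protein scaling (median -0.001). Of 16 methionine and polyamine genes 5 rose and 1 fell (median 0.06), with AMD1 at 0.43 ± 0.03, but 1 rose and 1 fell with ERCC scaling (median -0.02) and 1 rose and 4 fell with ribosomal protein scaling (median -0.04).

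Genes of mitosis that fell without emetine mostly did not pass the test with it. Of 24 G2/M genes 2 rose and 3 fell with emetine. Without it none rose and 16 fell, beside 26.0% and 21.9% of all genes. The effect was more positive with emetine in 11 and more negative in none, beside 6.71% and 11.1% of all genes. The median of the G2/M genes was 0.01 with emetine and -0.12 without, and the first became -0.07 with ERCC scaling and -0.09 with ribosomal protein scaling. With ERCC scaling the more positive differences numbered 2, and with ribosomal protein scaling 11 G2/M genes fell with emetine. CENPF, a kinetochore protein, fell by 0.34 ± 0.06 with emetine and CENPA, the centromeric histone (overlaps SLC35F6), rose by 0.21 ± 0.06, a call that was lost with ERCC scaling (0.13) and with ribosomal protein scaling (0.10). Of 24 G1/S genes 9 rose and 1 fell with emetine and 8 rose and 8 fell without it, and the median of 0.04 with emetine became -0.05 with ERCC scaling and -0.07 with ribosomal protein scaling. With ERCC scaling 1 G1/S gene rose and 1 fell with emetine and 3 rose and 11 fell without it, and with ribosomal protein scaling 3 rose and 6 fell with emetine. A list of 26 transcripts known in the literature to carry m6A held 12 rises and 5 falls (median 0.11; 7 and 5 with ERCC scaling), the falls including TAF7, a general transcription factor subunit, at 68.6, 68.8 and 66.0 CPM with STM2457 and 126, 127 and 129 CPM with DMSO (log2 change -0.91 ± 0.04).

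**Figure D5:**
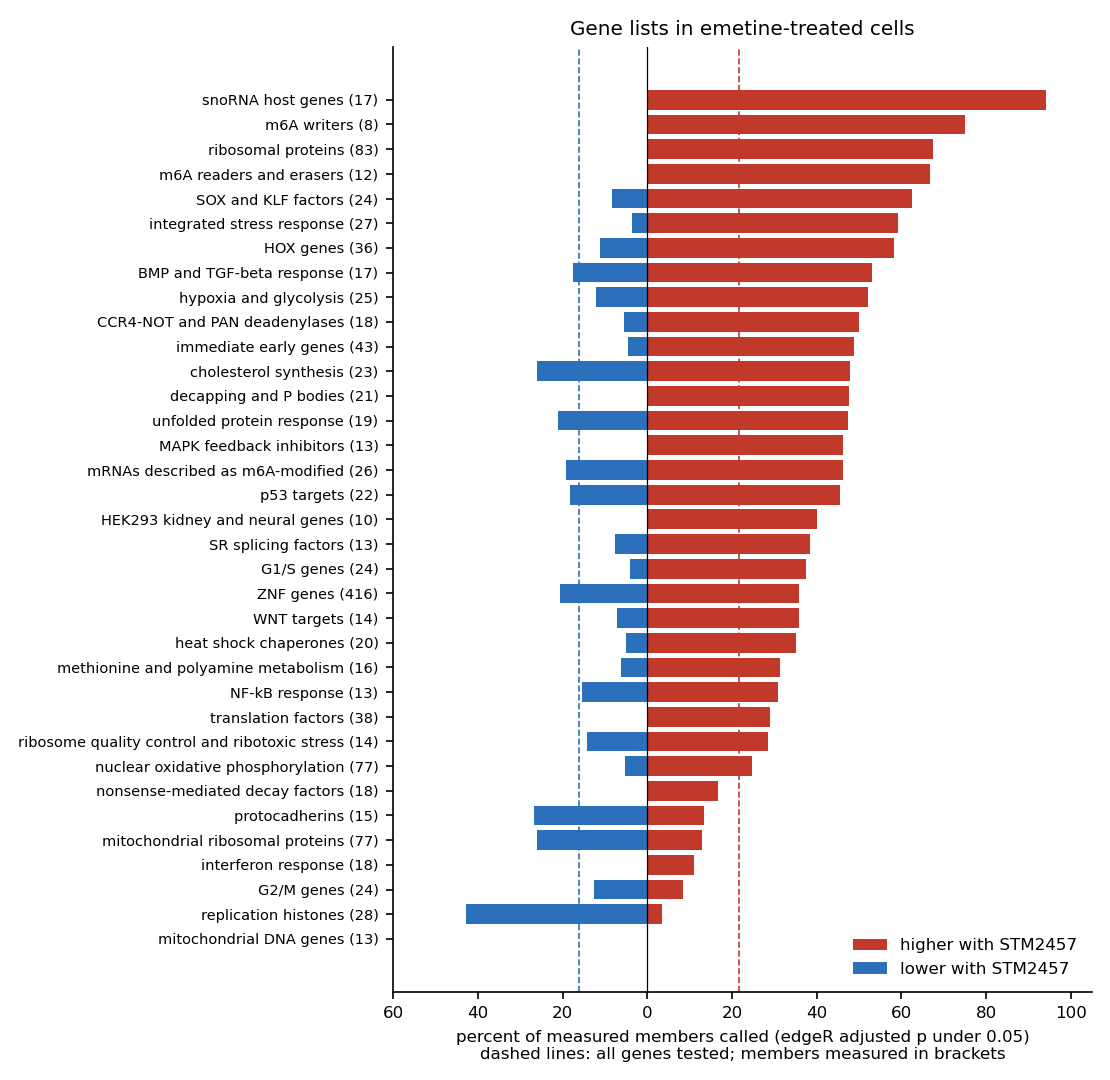
Percent of the measured members of each gene list called higher (red, right) or lower (blue, left) with STM2457 in emetine-treated cells, with the number of measured members in brackets. Dashed lines mark 21.6% and 16.2%, the shares over all genes; 16 of 17 host genes of small nucleolar RNAs were higher and 12 of 28 replication histones lower.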

How the data were processed

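Poly(A) RNA libraries of HEK293T cells were analysed from raw read counts per gene, as the authors deposited them without normalization. The genome build was GRCh38.p12, and featureCounts (Subread 2.0.0), SAMtools 1.9, STAR 2.7.3a, Trimmomatic, FastQC 0.11.8 and cutadapt (1.18 and 4.0) appear in the submitters' processing notes. Each table held 60662 gene IDs, and 92 ERCC rows were set apart. The 12 libraries of the emetine experiment were fitted together with 4 group means in edgeR 4.0.16 (R 4.3.3; TMM scaling, filterByExpr, quasi-likelihood F tests, Benjamini-Hochberg adjustment over 15817 genes, threshold 0.05). The knockdown and 9 h experiments were fitted apart. Depth was 21781514 to 28053353 gene counts per library, and the counting error of low genes is part of each SE. On simulated counts the procedure was checked for recovery of known changes.

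The members and gene lists, 39 in number, were chosen with earlier results of these data known. Named are YTHDF2 and METTL3, then, among protein coding genes, the 12 largest log2 changes in each direction and the 8 largest in each direction for the difference between effects. These had to be called, with mean log2 CPM of 2 or more and libraries that do not overlap, which for the difference applied to the larger of both effects. Also named are 3 genes of other biotypes in each direction and up to 4 members per list by smallest p; a few genes that this rule names are not reported here. Transcript features came from GENCODE release 29, whose motif search used the longest coding transcript of each gene. Alternatives were RLE, ERCC and ribosomal protein scaling, no low-count filter, DESeq2 1.42.0, a replicate block, a fit of 6 libraries and leaving out each library. Lists were described by counts and medians with no set test.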

Additional observations from a re-analysis of the deposited data

Results flagged for a closer look

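The results here stand out because the effect of STM2457 in emetine-treated cells differed from its effect without emetine by the test of the difference itself (edgeR adjusted p under 0.05). In all, 1062 genes had a more positive and 1748 a more negative effect with emetine. Among the named genes the difference, with emetine minus without, was most negative for ID3 (-1.51), ADPRM (-1.29), SPSB2 (-1.28), PTRH2 (-1.17), HOXA6 (-1.15), MED18 (-1.06), LENG9 (-1.04) and TMEM186 (-1.04). TMEM186 fell with STM2457 on both sides, by 1.43 with emetine and by 0.39 without.

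Of the genes that rose most with emetine, YTHDF2 (-0.89, named as the reader), TENT5B (-0.81), TRIM13 (-0.66), RBM15 (-0.37) and BAMBI (-0.27) rose by less with emetine than without it. Some of the genes that fell most with emetine fell by more with it, namely DHFR2 (-0.52), TSPYL4 (-0.52), ZDBF2 (-0.44), ZBTB26 (-0.41), ZNF33B (-0.40) and CHML (-0.29). Others fell by less, namely C14orf132 (0.38), ENSG00000285053 (0.53) and SDHAF1 (0.65).

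The difference was positive for rises that were larger with emetine in CHAC1 (1.89), KCNJ14 (1.29), DNAJB1 (0.94), SLC31A2 (0.62), GNB3 (0.60) and SMG1P7 (0.51). It was positive for falls that were smaller with emetine in HNRNPLL (1.86), PCNX4 (0.88), ZNF324B (0.79), PDRG1 (0.76) and HARS2 (0.75). KCNJ14, DNAJB1, SLC31A2, GNB3, PCNX4, PDRG1 and HARS2 overlap other protein coding genes, as do genes so marked in the report, and the part of reads from these in the difference was not tested.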

How the results depend on the processing

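Scaling moved the counts most. With ERCC scaling, 1351 genes rose and 2581 fell in emetine-treated cells and 2092 rose and 4679 fell without emetine, and the difference was more positive in 227 and more negative in 478. With ribosomal protein scaling 1657 rose and 4364 fell with emetine, 2200 rose and 6689 fell without it, and the difference was more positive in 1338 and more negative in 933. Of the 35 lists with 5 or more measured members, 31 had a median above 0 with TMM, 17 with ERCC and 14 with ribosomal protein scaling. The genes raised in the knockdown experiment had a median with emetine of 0.448 when chosen at 1.5-fold, 0.45 when taken from the 9 h experiment and 0.587 with ERCC scaling, and leaving out 1 emetine library gave 0.662 to 0.692. The lowered genes had -0.72, -0.983 and -1.263 under the same 3 settings. The gap between 3 to 4 coding motifs and none was 0.015 with emetine and 0.032 without when motifs at any distance counted, and 0.158 and 0.393 at coding lengths of 1500 to 3000 nt, a setting chosen after seeing the data. The direction reversed for METTL3 (-0.001 with ERCC and -0.023 with ribosomal protein scaling) and, with ribosomal protein scaling, for EIF4B (-0.003) and CASC3 (-0.017). Leaving out 1 library gave -0.097 to 0.055 for SPSB2 and -0.064 to 0.005 for PTRH2, the upper values without STM2457 and emetine replicate 3. The causes were not tested. Replicate numbers did not pair the samples (same-number correlations of -0.062, 0.042 and -0.038 with emetine and -0.129, 0.308 and 0.144 without it), and with the replicate block 3420 genes rose and 2559 fell, and the difference was more positive in 1068 and more negative in 1770. RLE scaling, DESeq2, no low-count filter, the fit of 6 libraries and leaving out a library kept the counts of calls within 1.5 times. Low genes limit the precision: changes of a few CPM rest on few reads.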
